A study of Mus musculus with 6 samples.

Results

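The Myc network is a set of transcription factors built around Max, and 9 of its genes were examined together with Basp1, a gene whose protein can repress Myc-driven transcription. The 10 genes (Myc, Mycn, Mycl, Max, Mxd1, Mxd4, Mxi1, Mnt, Mga and Basp1) were taken by symbol from the 54532 genes measured, and all 10 were found. They had been chosen from earlier results of the same comparison, in which Mycn and Basp1 were among the genes that differed most, so their levels and differences are given here as a description, without a test. Of the 10 genes, 9 had a mean of at least 1 FPKM (fragments per kilobase of exon, scaled to library depth) over all libraries, the level required for testing, and Mycl did not.

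RNA came from mouse bone marrow-derived macrophages immortalised by retroviral v-raf and v-myc. The 3 WT libraries came from cells of wild-type mice, and the 3 KO-labelled libraries from cells of mice lacking 4-1BBL, a TNF family ligand encoded by Tnfsf9. All 6 libraries came from cells given IL-4 at 10 ng/ml for 24 hours, so no library shows the cells without IL-4, and all cells of either group carry the viral oncogenes. The labels number 3 libraries per group without saying whether they were separate cultures or animals, or whether a line was clonal, so the p-values given below take in the variation among these libraries alone, and that variation may be technical.

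Myc, N-Myc and L-Myc are related transcription factors that promote growth and division. Each pairs with Max to bind the E-box CACGTG and activate transcription. Mxd proteins, Mxi1, Mnt and Mga compete for Max at the same sites and repress. Basp1 is a myristoylated protein, known from neurons, that also acts in the nucleus as a corepressor and can bind calmodulin. Myeloid cells normally lower Myc and raise Mxd1 as they stop dividing and mature.

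The network proteins share a short basic stretch that reads the E-box, and its coding bases are shown because they are what joins members of opposite expression. They are from GENCODE M21 transcripts (mm10), 27 bases each, 5′ to 3′ on the coding strand, with capitals on the codons of the histidine, glutamate and arginine that contact the E-box.
Mycn (chr12:12937219-12937245, minus strand): CACaacatcctgGAGcgtcaacgcCGG
Myc (chr15:61989663-61989689, plus strand): CACaacgtcttgGAAcgtcagaggAGG
Max (chr12:76953232-76953258, minus strand): CATaatgcactgGAAcgaaaacgtAGG
Mnt (chr11:74837450-74837615, plus strand, across an intron): CACaacaaattgGAGaagaacaggAGG
Mga (chr2:119958247-119958273, plus strand): CACactgccaatGAGcggcgtcggCGT
In this stretch Mycn shared 20 of 27 bases with Myc, 17 with Max, 16 with Mnt and 15 with Mga. A stretch of this form was found in all 9 network genes and not in Basp1, which is not a DNA-binding member of the family.

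The groups were of similar depth, at 19.1 to 26.4 M (mega) assigned fragments per library, as recovered from the FPKM values. Of 10 macrophage markers, 9 reached a mean of 1 FPKM in WT and all 10 in KO-labelled cells, with summed levels of 2302 to 2353 and 1361 to 1410 FPKM. The markers differed in both directions, with Lyz2 at 1198 to 1221 FPKM in WT and 452 to 518 FPKM in KO-labelled cells, Cd14 at 286 to 296 and 42.8 to 47.8 FPKM, and Cd68 and Csf1r also lower, but Adgre1 at 11.3 to 12.5 and 261 to 273 FPKM, and Fcgr1, Ptprc and Mertk also higher. Mertk was at 0 in 2 WT libraries, and the part of these marker differences in the results was not tested. None of 8 neural and neuroendocrine markers, listed because Mycn and Basp1 are best known from neural tissue, reached a mean of 1 FPKM in either group, and Chga, Dbh and Stmn2 were at 0 throughout. Tubb3 came nearest, at 0.994, 0.788 and 0.559 FPKM in KO-labelled libraries and 0, 0.103 and 0 FPKM in WT. No fibroblast, granulocyte or erythroid marker reached a mean of 1 FPKM either, and of the T and B cell markers only Lck in WT and Cd79b in KO-labelled cells did. The targeted gene Tnfsf9 was at 12.3 ± 2.10 FPKM in WT against 10.9 ± 0.414 FPKM under the KO label (SD, n = 3; log2 difference -0.15, limma adjusted p = 0.273, Benjamini-Hochberg). What was deleted from the gene is not stated in the labels, so the group is called KO-labelled throughout. The Y-linked gene Ddx3y was at 10.8 FPKM in KO-labelled and 0.00309 FPKM in WT libraries, so the cells compared also differ in Y-linked transcripts, whose part in the results was not tested.

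Of the Myc paralogs, Mycn was high in WT and near absent in KO-labelled cells, Myc was lower in KO-labelled cells, and Mycl was not detectable in either group. Mycn, which encodes N-Myc (ENSMUSG00000037169, chromosome 12, 12936093 to 12941914, minus strand, mm10), was at 283, 283 and 275 FPKM in WT replicates 1 to 3 and at 0.0115, 0.0154 and 0.0634 FPKM in the KO-labelled replicates of the same numbers. Its WT levels came from 19900, 19360 and 20186 fragments, and its KO-labelled levels from 1, 1 and 4. In bulk RNA, fewer cells with the transcript and less of it per cell cannot be told apart, here and below. All WT libraries lay within a narrow band and the KO-labelled libraries lay near the floor of 3 fragments, replicates 1 and 2 below it and replicate 3 just above. Mycn ranked 148th to 158th among 10843 tested genes in the WT libraries, above 98.6% of them by its WT mean. The ratio of group means, 280 ± 4.53 against 0.0301 ± 0.0289 FPKM (SD, n = 3), was 9309, a figure that rests on 6 fragments and became 20835 without KO-labelled replicate 3.

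Myc itself (ENSMUSG00000022346, chromosome 15, 61985391 to 61990374, plus strand) was at 13.8, 12.8 and 10.2 FPKM in the WT libraries and at 0.851, 1.55 and 0.904 FPKM in the KO-labelled libraries. The groups did not overlap, and the mean was 11.1-fold higher in WT, at 12.3 ± 1.83 against 1.10 ± 0.390 FPKM (SD, n = 3). The values are per mouse gene, and fragments of viral v-myc cannot be told from those of the mouse gene in a per-gene value, so the part of v-myc in the level of Myc was not tested. Mycl, the L-Myc gene (ENSMUSG00000028654, chromosome 4, 122995652 to 123002485, plus strand), was at 0 in all libraries but KO-labelled replicate 3, which held 2 fragments. Since a count of 0 allows up to 3 fragments, Mycl was not detectable at this depth in either group. Within the WT group Myc varied most among the well expressed members, with a coefficient of variation of 14.9% against 1.62% for Mycn and 1.36% for Max.

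Max, the shared partner (ENSMUSG00000059436, chromosome 12, 76937269 to 76962201, minus strand), was at 38.5, 39.4 and 38.5 FPKM in the WT libraries and 35.6, 36.9 and 42.1 FPKM in KO-labelled libraries. The KO-labelled libraries lay on either side of the WT range, and the means were 38.8 ± 0.526 and 38.2 ± 3.44 FPKM (SD, n = 3). The difference of -0.03 on the log2(FPKM + 1) scale, KO-labelled minus WT, became 0.07 after rescaling to TPM, so no direction is given.

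**Figure D1:**
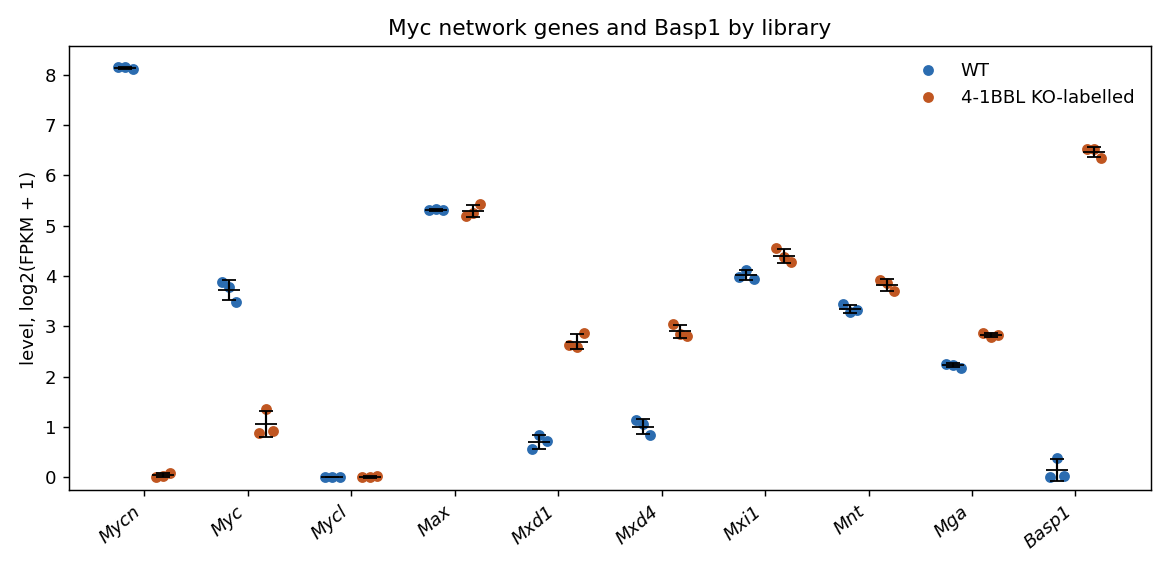
Levels of the 10 genes as log2(FPKM + 1) on the vertical axis, with 1 point per library (3 WT, 3 KO-labelled) and black bars at the mean ± SD. Mycn and Myc sit high in WT, Mxd1, Mxd4 and Basp1 sit high in KO-labelled cells, and Max overlaps between the groups.

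The 5 repressing partners of Max among the members were all higher in KO-labelled cells, with no overlap between the groups for any of them. The groups were also fully separated for 67.4% of all tested genes. Mxd3, a Mad gene outside the members, was lower, as given below. Mxd1, the Mad1 gene that rises as myeloid cells mature (ENSMUSG00000001156, chromosome 6, 86647042 to 86669161, minus strand), was at 0.477, 0.784 and 0.648 FPKM in the WT libraries and 5.17, 5.02 and 6.31 FPKM in KO-labelled libraries. Mxd4, the Mad4 gene (ENSMUSG00000037235, chromosome 5, 34173883 to 34187720, minus strand), was at 1.203, 1.08 and 0.784 FPKM in the WT libraries and 7.28, 6.19 and 6.02 FPKM in KO-labelled libraries. Of the exon length of Mxd4, 6.06% overlaps the antisense gene Gm42846, which was at 0. The levels give ratios of 8.64 and 6.36 for Mxd1 and Mxd4 between the group means, the widest among the repressing partners.

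The remaining partners differed less. Mxi1, which encodes the related repressor also called Mad2 (ENSMUSG00000025025, chromosome 19, 53310518 to 53375810, plus strand), was at 14.8, 16.4 and 14.3 FPKM in the WT libraries and 22.4, 19.9 and 18.4 FPKM in KO-labelled libraries, 1.33-fold higher. Mnt, a widely expressed Max partner that represses (ENSMUSG00000000282, chromosome 11, 74830920 to 74845725, plus strand), was at 9.86, 8.76 and 8.98 FPKM in the WT libraries and 14.1, 13.5 and 11.9 FPKM in KO-labelled libraries, 1.43-fold higher. Mga, the largest protein of the family and part of a Polycomb complex (ENSMUSG00000033943, chromosome 2, 119897228 to 119969581, plus strand), was at 3.80, 3.70 and 3.53 FPKM in the WT libraries and 6.29, 5.93 and 6.08 FPKM in KO-labelled libraries, 1.66-fold higher. Mga had the smallest relative spread of the 5, with coefficients of variation of 3.61% and 2.94%.

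Basp1 (ENSMUSG00000045763, chromosome 15, 25363277 to 25413764, minus strand) showed the reverse pattern to Mycn. It was at 0, 0.312 and 0.0224 FPKM in WT replicates 1 to 3, from 0, 13 and 1 fragments, and at 90.6, 90.8 and 80.5 FPKM in the KO-labelled libraries, from 4803, 3592 and 3093 fragments. WT replicate 2 held nearly all WT fragments of Basp1, and the KO-labelled libraries lay close together. The ratio of the group means, 87.3 ± 5.92 against 0.111 ± 0.174 FPKM (SD, n = 3), was 783, and without WT replicate 2 it was 7808. Basp1 lay above 95.4% of tested genes in KO-labelled cells and above 1.59% of them in WT.

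Limma's test across all genes called 8 of the 9 tested members, 6 higher and 2 lower in KO-labelled cells, where 60.8% of all 10843 tested genes were called, 30.6% higher and 30.2% lower. Levels in the groups were fully separated for the same number, 8 of 9, against 67.4% of tested genes. Since the genes were chosen with this comparison known, nothing is read from these counts.

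FPKM is scaled to all annotated exons of a gene, so an order of genes by FPKM need not be that of transcript numbers. With that limit, the order of the levels also differed between the groups. In WT cells it ran Mycn, Max, Mxi1, Myc, Mnt, Mga, Mxd4, Mxd1, Basp1 and Mycl, where the ranges of Mxd4 and Mxd1 and those of Basp1 and Mycl overlapped. In KO-labelled cells it ran Basp1, Max, Mxi1, Mnt, Mxd4, Mga, Mxd1, Myc, Mycn and Mycl, where Mxd4 overlapped Mga, Mga overlapped Mxd1, and Mycn overlapped Mycl. Max held the second place and Mxi1 the next in either group.

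Summed by role over the members, levels of the mouse Myc paralogs exceeded those of the repressing partners in WT and not in KO-labelled cells. That contrast rests on Mycn, which was known to differ when the members were chosen. Myc alone, at 12.3 FPKM in WT, lay below the repressing partners, at 29.7 FPKM in sum. The sums leave out Mxd3, and viral v-myc has no value of its own in them. Myc, Mycn and Mycl together came to 297, 296 and 285 FPKM in WT and to 0.862, 1.57 and 0.993 FPKM in KO-labelled libraries, and Mycn made up 95.8% ± 0.542 of the WT sum (SD, n = 3). The repressing partners Mxd1, Mxd4, Mxi1, Mnt and Mga together came to 30.1, 30.8 and 28.3 FPKM in WT and to 55.3, 50.5 and 48.8 FPKM in KO-labelled libraries, 1.73-fold higher. Per FPKM of Max there were 7.54 ± 0.149 FPKM of Myc paralogs in WT and 0.0301 ± 0.0107 in KO-labelled cells, and 0.765 ± 0.0276 and 1.36 ± 0.197 FPKM of repressing partners. Per FPKM of the mouse Myc paralogs, these repressing partners stood at 0.102 ± 0.00243 FPKM in WT (SD, n = 3). In KO-labelled cells they stood at 48.5 ± 15.9 FPKM. The KO-labelled libraries were at 64.1, 32.2 and 49.1 FPKM, over a paralog sum of at most 1.57 FPKM.

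**Figure D2:**
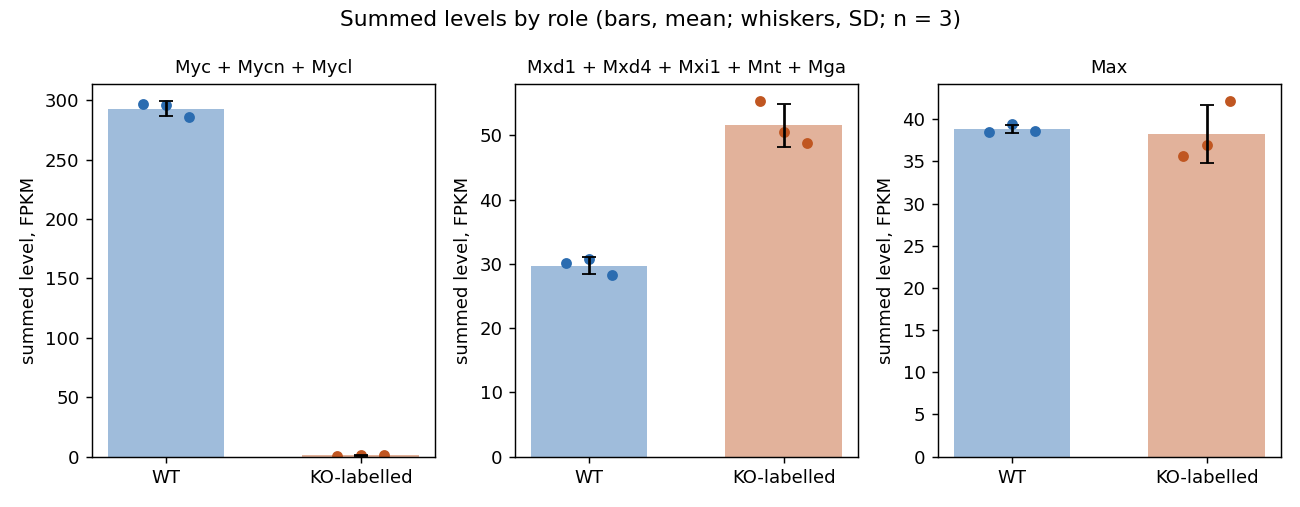
Summed FPKM of the mouse Myc paralogs, of the repressing partners of Max among the members, and of Max alone, in 3 panels with their own vertical axes starting at 0. Points are libraries, bars are means and whiskers are SD, and the paralog sum lies between 285 and 297 FPKM in WT and is at most 1.57 FPKM in KO-labelled cells, while Max overlaps.

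The promoters of Mycn and Basp1, the members that differ most, are shown as the sequence around their start sites. They are RefSeq sequences of GRCm38.p6 (the build also called mm10), 300 bases from 250 before to 50 after the start site, 5′ to 3′ on the gene's strand. Capitals in Mycn mark TTTGGCGC, a form of the E2F recognition sequence.
Mycn (chr12:12941787-12942086, minus strand): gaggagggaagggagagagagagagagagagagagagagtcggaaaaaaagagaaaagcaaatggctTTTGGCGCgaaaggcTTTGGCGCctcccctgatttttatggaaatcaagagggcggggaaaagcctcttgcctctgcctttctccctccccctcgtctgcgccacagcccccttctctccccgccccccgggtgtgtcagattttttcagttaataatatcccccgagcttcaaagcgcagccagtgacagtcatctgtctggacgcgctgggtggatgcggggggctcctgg
Basp1 (chr15:25413715-25414014, minus strand): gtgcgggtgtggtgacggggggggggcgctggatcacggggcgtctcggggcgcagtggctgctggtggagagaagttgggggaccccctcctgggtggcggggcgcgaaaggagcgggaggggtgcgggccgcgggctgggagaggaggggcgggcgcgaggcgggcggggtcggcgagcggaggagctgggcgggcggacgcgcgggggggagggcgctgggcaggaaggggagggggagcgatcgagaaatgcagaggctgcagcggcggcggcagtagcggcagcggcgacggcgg
The E2F-type motif was chosen after the Mycn sequence had been read, and it was searched on both strands. It began 183 and 168 bases before the start site of Mycn, without overlap, while 0.514% of the 32851 promoters in the table held it at least once and 0.00609% more than once. The E-box CACGTG, which reads the same on both strands, was in the windows of Max, Mxd4 and Mnt and in 7.15% of all promoters, and was not in those of Mycn or Basp1. The Basp1 window held 38 CpG dinucleotides, more than 95.05% of promoters held, and the Mycn window 14, more than 63.7%. The table held 9 of the 10 genes, Myc being the other.

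Among the expressed genes around Mycn and Basp1 within 1 Mb, differences were small beside those of the members, apart from Fam49a. Ddx1, an RNA helicase gene 275 kb away from Mycn that is often amplified with it in human neuroblastoma, was at 52.6, 54.9 and 53.7 FPKM in the WT libraries and 41.1, 41.2 and 43.8 FPKM in KO-labelled libraries. It was lower with a log2 difference of -0.35 ± 0.04 (SE, limma adjusted p = 0.000461, Benjamini-Hochberg). Nbas, a gene of Golgi-to-ER transport next to Ddx1, was also lower, by -0.35 ± 0.08 (limma adjusted p = 0.00957). On the other side Fam49a, 555 kb away, rose from 0.646 ± 0.110 to 6.41 ± 0.334 FPKM (SD, n = 3), a log2 difference of 2.17 ± 0.09 (SE, limma adjusted p = 1.37e-06). These are the only 3 protein-coding genes in that window.

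Beside Basp1, the unconventional myosin gene Myo10, 209 kb away, rose from 5.51 ± 0.179 to 7.99 ± 0.497 FPKM (limma adjusted p = 0.000657). Retreg1, an ER-phagy receptor gene, was lower, at 13.3 ± 0.775 and 10.4 ± 1.02 FPKM, and Zfp622, a zinc finger gene, higher, at 8.89 ± 0.762 and 11.5 ± 0.799 FPKM (limma adjusted p = 0.00988 and 0.00827). No protein-coding gene of the annotation lay within that distance of Myc.

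**Figure D3:**
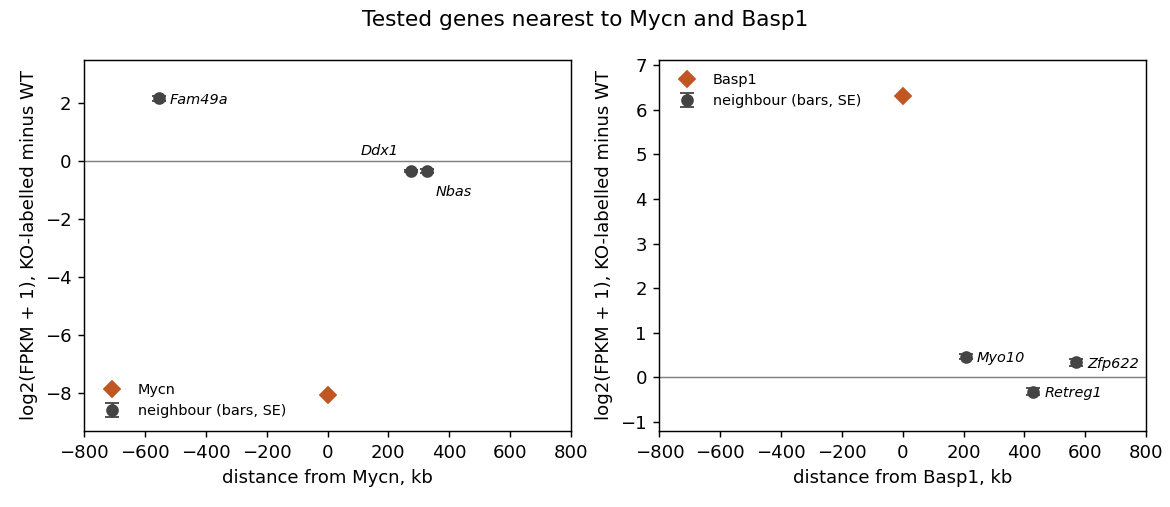
Difference in log2(FPKM + 1), KO-labelled minus WT, of the tested genes nearest to Mycn (left) and Basp1 (right), against their distance in kb, with SE bars and the member itself as a diamond at 0. Mycn stands at -8.09 and Basp1 at 6.32, while Ddx1, Nbas, Myo10, Retreg1 and Zfp622 lie within 0.5 of 0 and Fam49a at 2.17.

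Marcks, which like Basp1 encodes a myristoylated, calmodulin-binding protein of the inner plasma membrane, also differed widely. It was at 0, 0.0476 and 0.0555 FPKM in WT, from 9 fragments in all, and at 28.1, 26.2 and 23.9 FPKM in KO-labelled libraries (log2 difference 4.71 ± 0.08 (SE), limma adjusted p = 2.60e-08). The ratio of group means was 759, and 506 without WT replicate 1. Its relative Marcksl1 did not pass, at 63.6 ± 2.99 and 65.2 ± 4.23 FPKM, with a 95% interval of the log2 difference from -0.11 to 0.18, and Gap43, the neuronal member of this functional group, was at 0 in all libraries. Prkca, the protein kinase C alpha gene, fell from 10.2 ± 0.384 to 0.890 ± 0.225 FPKM (limma adjusted p = 1.16e-06), whereas Prkcd rose from 25.997 ± 0.572 to 37.0 ± 2.19 FPKM. Wt1, the transcription factor with which Basp1 was first described as a corepressor, was at 0 in all libraries.

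Among 12 tested genes related to Basp1 or to its partners, 4 were called higher, 4 lower and 4 neither, or 4 and 2 either after rescaling to TPM or after quantile normalization. In the main fit 66.7% were called, against 60.8% of all tested genes. The prohibitin genes Phb and Phb2, whose products bind Basp1, moved apart, from 101 ± 2.39 to 122 ± 7.12 FPKM and from 113 ± 2.39 to 99.98 ± 6.61 FPKM. Of the calmodulin genes Calm3 fell from 120.5 ± 1.601 to 105 ± 5.69 FPKM and Calm2 rose from 118 ± 1.94 to 140 ± 8.86 FPKM. The myristoyltransferase genes Nmt1 and Nmt2 did not pass.

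**Figure D4:**
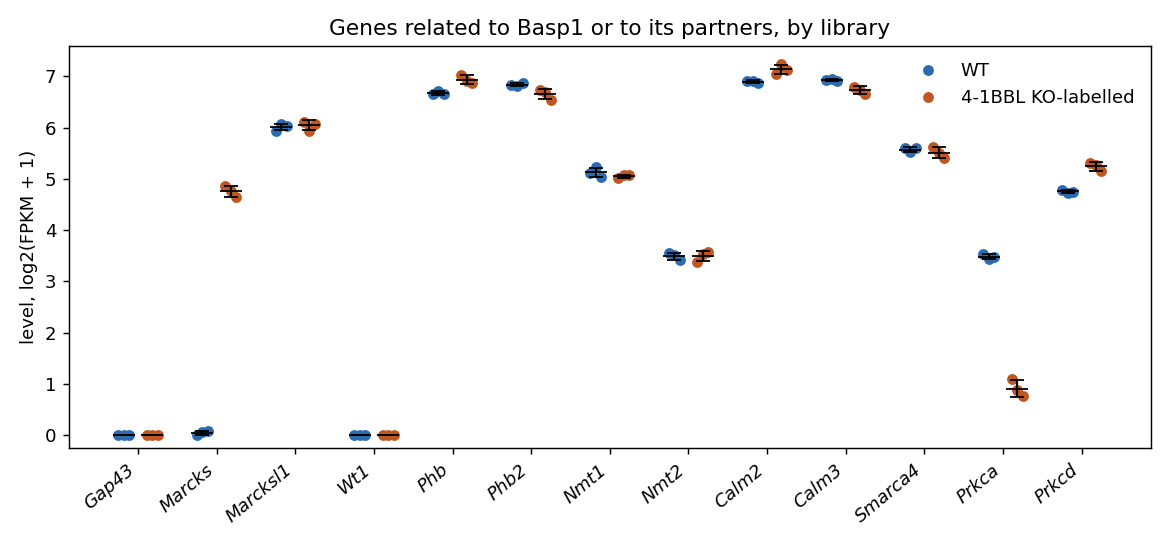
Levels as log2(FPKM + 1) of 13 genes related to Basp1 or to its partners, with 1 point per library (3 per group) and bars at the mean ± SD. Marcks lies near 0 in WT and above 4 in KO-labelled libraries, Prkca lies lower in KO-labelled libraries than in WT, and Gap43 and Wt1 are at 0 in both groups.

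Outside the 10 members, 15 genes of related helix-loop-helix factors were tested, with 3 called higher, 6 lower and 6 neither. Called genes made up 60% of them, near the 60.8% of all tested genes. Mxd3, the Mad gene expressed in dividing cells, fell from 1.52 ± 0.155 to 0.776 ± 0.135 FPKM (limma adjusted p = 0.00606), opposite in direction to Mxd1 and Mxd4. In the parallel arm built on Mlx, which senses glucose products, Mlx fell from 30.1 ± 2.07 to 21.5 ± 0.870 FPKM and its partner Mlxip rose from 6.97 ± 0.434 to 11.5 ± 0.384 FPKM (limma adjusted p = 0.000101). Hif1a, a hypoxia factor of the wider helix-loop-helix class, fell 2.38-fold (limma adjusted p = 1.04e-06), and the clock gene Arntl fell from 2.90 ± 0.281 to 1.54 ± 0.0940 FPKM. Usf1 and Usf2, E-box activators that do not pair with Max, did not pass.

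Genes of the Myc cofactor complexes were called in 12 of 19 cases, 8 higher and 4 lower, or 11 and 3 after rescaling to TPM and 5 and 4 without WT replicate 2. The main share of 63.2% was near the 60.8% of all tested genes. The acetyltransferase genes Ep300 and Crebbp were higher, Ep300 at 12.9 ± 0.386 against 7.73 ± 0.168 FPKM in WT and Crebbp at 5.46 ± 0.429 against 2.93 ± 0.159 FPKM (limma adjusted p = 3.12e-05 and 0.000179). Actl6a, a subunit of chromatin remodelling complexes, fell from 22.5 ± 1.26 to 12.8 ± 0.518 FPKM (limma adjusted p = 3.44e-05), with 11.6% of its exon length overlapping the antisense gene Mrpl47. Trrap, the scaffold that Myc binds, did not pass, at 6.49 and 7.25 FPKM.

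Regulators of Myc protein stability were called 8 higher, 8 lower and 7 neither of 23, or 10 and 5 after rescaling to TPM. Of these regulators 69.6% were called in the main fit, against 60.8% of all tested genes. The Pim kinases, which phosphorylate and stabilise Myc, were all higher. Pim1 rose from 8.45 ± 1.02 to 20.8 ± 3.70 FPKM, Pim3 from 35.3 ± 1.03 to 68.6 ± 9.31 FPKM and Pim2 from 6.96 ± 0.475 to 12.2 ± 1.18 FPKM (the highest of the limma adjusted p-values was 0.000298). Aurka, whose kinase protects N-Myc from degradation, fell from 63.7 ± 1.95 to 49.3 ± 2.49 FPKM, and Fbxw7, the ubiquitin ligase subunit that targets Myc, did not pass, at 3.72 and 3.54 FPKM.

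Corepressor genes that Mxd proteins and Mnt recruit were called in 12 of 20 cases, 8 higher and 4 lower. At 60%, this was near the 60.8% of all tested genes. Sin3a, the scaffold bound by Mxd proteins, rose from 19.0 to 24.0 FPKM, and Sin3b, at 8.37 and 7.79 FPKM, did not pass. The histone deacetylase genes moved apart, with Hdac1 higher, from 26.1 to 39.2 FPKM, Hdac2 lower, from 36.4 to 26.004 FPKM, and Hdac3 lower, from 20.5 ± 0.554 to 12.3 ± 1.65 FPKM (limma adjusted p = 0.000457). Ing1, a chromatin reader of the Sin3 complex, rose from 13.6 ± 1.27 to 22.5 ± 1.24 FPKM (limma adjusted p = 0.000217). Sap18 fell from 17.5 ± 1.19 to 11.2 ± 1.92 FPKM, but it has a near-identical copy, Sap18b, and its value is uncertain.

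The Polycomb complex that contains Mga was represented by 11 tested genes, of which 5 were higher, 4 lower and 2 neither, or 6 and 2 after rescaling to TPM and 3 and 4 after quantile normalization. The main fit called 81.8% of them, against 60.8% of all tested genes. The counts also moved with single libraries, to 4 higher and 2 lower without WT replicate 2 or without KO-labelled replicate 1, and to 3 and 3 without WT replicate 3 or without KO-labelled replicate 3. The ubiquitin ligase genes Rnf2 and Ring1 differed in direction, Rnf2 rising from 8.75 ± 0.271 to 12.9 ± 0.489 FPKM and Ring1 falling from 6.20 ± 0.993 to 3.41 ± 0.712 FPKM (limma adjusted p = 0.000167 and 0.00567). Cbx1, a heterochromatin protein gene, rose from 15.1 ± 0.669 to 19.99 ± 0.893 FPKM (limma adjusted p = 0.000917). E2f6, which anchors the complex at E2F sites, fell from 11.2 to 8.65 FPKM, and L3mbtl2 rose from 11.1 to 12.9 FPKM.

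The list of genes known to be activated by Myc held 46 tested genes, 14 called higher, 16 lower and 16 neither, or 18 and 12 after rescaling to TPM and 18 and 11 after quantile normalization. Their median log2 difference was -0.01, against 0.01 over all tested genes, and 65.2% of the list was called, against 60.8%. Those that fell included enzymes of growth metabolism. The polyamine enzyme gene Odc1 fell from 271 ± 6.95 to 141 ± 6.85 FPKM (limma adjusted p = 4.32e-06), although pseudogenes close to it in sequence make its level uncertain, and the one-carbon gene Shmt2 fell from 204 ± 7.51 to 122 ± 1.72 FPKM. The glutamine transporter gene Slc1a5 fell from 79.1 ± 2.47 to 47.3 ± 0.373 FPKM, and Cad, of pyrimidine synthesis, from 47.2 ± 0.837 to 33.4 ± 1.03 FPKM. Bax, a cell death gene, fell from 111 ± 6.86 to 62.9 ± 9.998 FPKM (limma adjusted p = 0.000725).

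In the other direction Id2, a dominant-negative helix-loop-helix gene, rose from 20.2 ± 1.84 to 37.3 ± 1.76 FPKM (limma adjusted p = 6.08e-05), Polr1b, of RNA polymerase I, rose from 14.5 ± 0.406 to 25.7 ± 0.166 FPKM, and the transferrin receptor gene Tfrc rose from 111 ± 2.87 to 167 ± 5.09 FPKM. Genes of the nucleolus and of ribosome production were mixed. Npm1 fell from 824 ± 12.1 to 691 ± 25.3 FPKM (limma adjusted p = 0.00151), and Fbl, Gnl3 and Rrs1 also fell. Ubtf, of ribosomal RNA transcription, rose from 37.8 ± 0.438 to 50.6 ± 1.295 FPKM (limma adjusted p = 0.000121), and Dkc1 also rose. Ncl, Nop56, Nop58 and Bop1 did not pass, with Nop56 at 86.7 ± 2.67 and 85.2 ± 2.005 FPKM and Bop1 at 74.3 ± 1.80 and 74.8 ± 1.65 FPKM. Ccnd2, a cyclin gene, was at 0.960 and 0.0213 FPKM and Tert, of telomerase, at 1.05 and 0.153 FPKM, and neither reached the level for testing. Shmt2, Slc1a5, Cad, Polr1b, Tfrc and the nucleolar genes were picked from the list after their values were seen.

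Among 16 tested genes listed as repressed by Myc, 9 were called lower, 5 higher and 2 neither, and their median log2 difference was -0.22. Over all tested genes 30.2% were called lower and 30.6% higher, and the median was 0.01. For the list, without a filter on expression, the calls were 7 lower and 7 higher. They were 7 lower and 5 higher either after rescaling to TPM or after quantile normalization. Ndrg2 and Ndrg4, of a family named for repression by N-Myc, fell from 93.1 ± 2.05 to 3.22 ± 0.957 FPKM and from 29.1 ± 0.931 to 0.898 ± 0.229 FPKM (limma adjusted p = 7.35e-07 and 1.34e-07). Ndrg1 moved the other way, from 12.9 ± 0.864 to 23.1 ± 1.78 FPKM. The cyclin-dependent kinase inhibitor gene Cdkn1a fell from 39.3 ± 1.89 to 10.5 ± 0.952 FPKM (limma adjusted p = 1.51e-06), while Cdkn1b, at 12.2 ± 0.925 and 13.4 ± 1.00 FPKM, did not pass. Klf6 rose from 9.98 ± 0.382 to 32.8 ± 1.06 FPKM. Ndrg1, Cdkn1b and Klf6 were picked from the list after their values were seen.

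**Figure D5:**
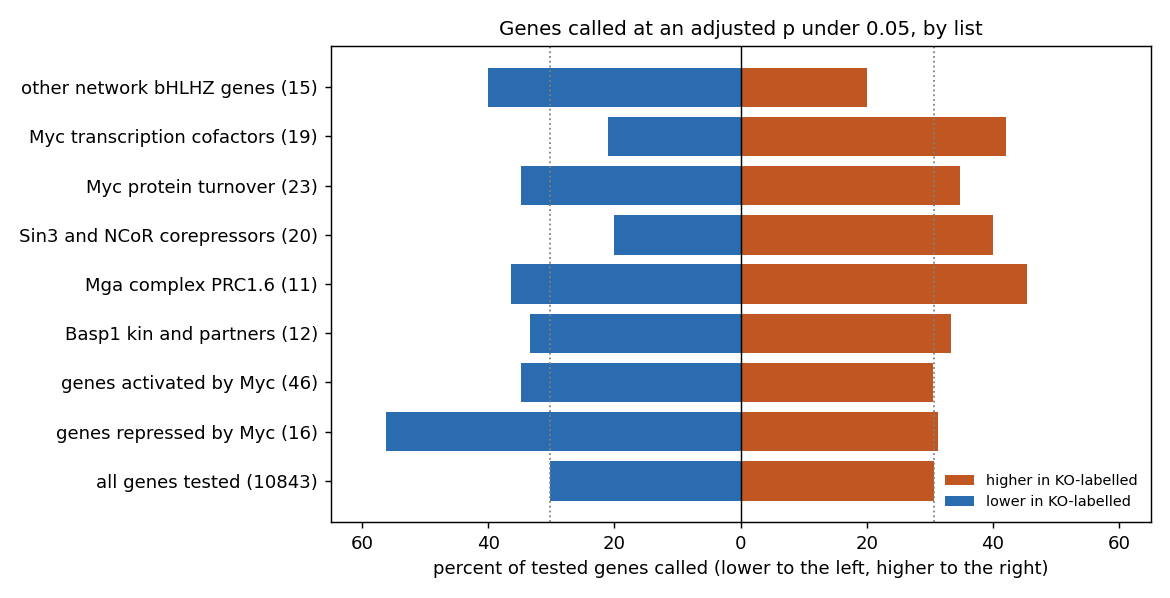
Percent of the tested genes of each list that were called lower (left) or higher (right) in KO-labelled cells at an adjusted p under 0.05, with the number tested in brackets and dotted lines at the shares over all genes, 30.2% and 30.6%. The list of genes repressed by Myc has the longest bar to the left, and the list activated by Myc lies close to the lines.

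The genes whose levels over the 6 libraries were most like those of each leading member were found by the root mean square difference of log2(FPKM + 1), a description with nothing said of shared control. The search covered tested protein-coding genes, without the members and without predicted genes and pseudogenes by symbol. Nearest to Mycn were Cldn11 (0.95), at 108 to 113 FPKM in the WT libraries and 0 in KO-labelled libraries, then Chst1 (1.67) and Slc16a3 (1.67). No gene searched thus came close to the WT level of Mycn with a similar absence elsewhere. Nearest to Basp1 were the Fc receptor gene Fcgr3 (0.29) and the complement gene C1qb (0.33). Fcgr3 was at 0.189, 0.805 and 0.233 FPKM in the WT libraries and at 74.5, 75.3 and 80.3 FPKM in KO-labelled libraries. Nearest to Myc were the endocytosis genes Epn2 (0.19) and Ehd2 (0.26) and Lzts2 (0.27), with Epn2 at 11.4 ± 0.847 and 1.24 ± 0.132 FPKM.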

How the data were processed

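Per the labels' protocol, poly(A) RNA was sequenced, where directional as well as non-directional library preparation is described. The authors deposited FPKM per Ensembl gene, and the submitters' processing notes name HISAT2 2.0.5, featureCounts 1.5.0-p3 and mm10. The sources used here give no annotation release, strand setting or treatment of multi-mapping, so antisense overlaps cannot be assumed to have been separated. Symbols, exon lengths and positions came from GENCODE M21 (54495 identifiers matched, 37 did not). FPKM times exon length gave whole fragments within 0.1 for about 98.0% of low values, which gave the depths and fragment numbers. For Mxi1 they were not whole, so none are given. Floors cover counting error only. Intervals come from the limma fit and take in the variation among the libraries. Precision is limited by 3 libraries per group.

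The 10843 genes whose mean FPKM over the 6 libraries reached 1 were tested with limma 3.58.1 in R 4.3.3 on log2(FPKM + 1), KO-labelled minus WT, with a mean-variance trend and Benjamini-Hochberg adjustment at 0.05. This scale understates changes of low genes. Folds are ratios of mean FPKM. The step was tested on simulated data in which far fewer genes changed than were called here, so that test does not cover data like these. Near-identical copies (at least 95% identity over 80% of the shorter transcript and 150 bases) were found with BLAST+ 2.17.0. The members and lists were chosen with earlier results of these data known. Genes named are the members, the 3 largest differences in each list, the 3 nearest tested genes on each side of Mycn, Myc and Basp1 within 1 Mb, and the 3 most like profiles of those members; other list genes given with values were added after these were seen, and a few genes under these rules are not reported here. Alternatives were another pseudocount, filters, TPM, quantile normalization, a replicate block, voom and leaving out each library.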

Additional observations from a re-analysis of the deposited data

How the results depend on the processing

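The directions of Mycn, Myc, Mxd1, Mxd4, Mxi1, Mnt, Mga and Basp1 held under all alternatives in which they were tested, while that of Max did not. The log2 difference of Mycn ran from -13.19 with voom to -8.01 under quantile normalization, and that of Basp1 from 6.25 without WT replicate 1 to 10.8 with voom, since near-absent levels depend on the scale. The number of genes called was 6594 and ran from 5835 to 6446 with a library left out, and 60.04% of calls were higher after rescaling to TPM against 50.4%. The list of related helix-loop-helix factors went from 9 called of 15 to 5 of 11 when a mean of at least 5 FPKM was required, which tests fewer genes. The total called in each of the other 7 lists stayed within 1.5 times of that given, but the split did not always. Genes of the Mga complex were 3 higher and 3 lower without a filter on expression. Corepressor genes called lower went from 4 to 2 with voom. It tested 17 of the 20 and left out Hdac3 and Sap130, both called lower in the main fit. Libraries with the same number did not deviate together (correlations -0.03, 0.05 and -0.03), so the numbers are not taken as pairs, and with the replicate number as a block 6194 genes were called. Voom used 10338 genes with whole fragments, without Mxi1. With fragments near 0, as for Mycn in KO-labelled and Basp1 in WT cells, depth limits the ratio.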

Other observations

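Bmyc, a rodent relative of Myc that lacks the DNA-binding end and was chosen after its values were seen, was at 7.05, 8.39 and 8.91 FPKM in WT and at 2.12, 1.76 and 0.797 FPKM in KO-labelled libraries. It was lower in all 3 KO-labelled libraries than in any WT library, with a log2 difference of -1.87 ± 0.20 (SE, limma adjusted p = 0.000218, Benjamini-Hochberg). Its exons overlap the antisense gene A230005M16Rik over 62.8% of their length, and that gene was at 0 in all libraries. Mycs, another rodent Myc relative, was at 0 in all 6 libraries.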
